A study of Homo sapiens with 6 samples.

Results

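The short arms of the acrocentric chromosomes 13, 14, 15, 21 and 22, outside their ribosomal DNA (rDNA) arrays, were examined in 4 lists of nascent-strand peaks. Members are peaks that start in 10 intervals of the T2T-CHM13 assembly, 1 distal (towards the chromosome end) and 1 proximal (towards the centromere) to the rDNA on each chromosome. In megabases (Mb) the intervals are 0 to 5.7 and 9.4 to 15.5 on chromosome 13, 0 to 2 and 2.9 to 10 on chromosome 14, 0 to 2.5 and 4.8 to 16.5 on chromosome 15, 0 to 3.1 and 5.7 to 10.9 on chromosome 21, and 0 to 4.7 and 5.8 to 12.7 on chromosome 22. They add up to 55 Mb, of which 18 Mb is distal and 37 Mb proximal. They hold 6201 of the 945863 peaks in the 4 lists. The control 1 list has 969 of its 181215 peaks there and control 2 has 1960 of 235865, while siORCA 1 has 2516 of 330265 and siORCA 2 has 756 of 198518.

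NS-seq sequences short nascent DNA strands, which are released where replication starts, after size selection and digestion with an exonuclease that degrades DNA lacking an RNA primer. The cells were U2OS, an osteosarcoma line, transfected with the control siRNA gl3 (2 samples) or with an siRNA named siORCA (2 samples). All groups share the same cell line and the same transfection, and the siRNA is the only labelled difference between them. ORCA is the product of LRWD1, a partner of the origin recognition complex that helps to keep it on chromatin and is known for its association with heterochromatin. The study asked how origin activity differs between these groups. NS-seq gives no measure of ORCA itself, so how far it was depleted is unknown here. Whether the replicates were separate cultures is not stated in the labels. The p-values therefore measure the spread between these particular samples and no more, and that spread may be technical. The 2 genomic DNA samples were not analysed here.

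Acrocentric short arms carry the nucleolus organisers, the rDNA arrays around which nucleoli form. The rest of these arms is made mostly of satellite repeats and segmental duplications, is largely heterochromatic and holds few protein-coding genes. Stretches on the distal side of the rDNA are nearly identical between the 5 chromosomes, so reads from one chromosome can be placed on another, and the chromosome given for a peak there is uncertain. The assembly is that of CHM13 and not of U2OS, and how many copies of each short arm these cells hold was not measured.

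The lists have no read counts, so their depth is unknown. They differ in length, with siORCA 1 the longest and control 1 the shortest. In the short arms control 2 and siORCA 1, 1 list of each siRNA group, had higher shares of covered length than control 1 and siORCA 2 in every interval. In the proximal interval of chromosome 14 the gap was small, with shares of 0.172%, 0.177%, 0.178% and 0.156%, and control 1 lay nearer to the higher lists than to siORCA 2. Values are therefore given for each list, and comparisons with the long arms are made within a list. Where 4 values follow each other without names, there and in what follows, their order is control 1, control 2, siORCA 1, siORCA 2. The long arms of the same chromosomes were read from 18, 13, 18, 12 and 16 Mb onwards on chromosomes 13, 14, 15, 21 and 22, and cover 333.9 Mb.

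Peaks were sparser in the short arms than in the long arms of the same chromosomes in every list. The short arms held 17.6 and 35.6 peaks per Mb in the control lists and 45.7 and 13.7 in the siORCA lists. The long arms held 65.8 and 86.2 peaks per Mb in the control lists and 121.5 and 72.7 in the siORCA lists. The ratio of short to long arms was 0.268, 0.414, 0.376 and 0.189, so that density was 2.42-fold to 5.29-fold lower. On the log2 scale the ratio was −1.75 ± 0.51 (SD, n = 4 lists), below 0 in 4 of 4 lists (exact sign permutation test, two-sided, p = 0.125, the smallest p that 4 lists allow). The short arms make up 1.76% of the summed chromosome length and held 0.535%, 0.831%, 0.762% and 0.381% of the peaks.

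The lower density was seen on each of the 5 chromosomes in each of the 4 lists, 20 of 20 ratios, but its size differed between chromosomes. Chromosome 14 came nearest to its long arm, with ratios of 0.554 and 0.782 in the control lists and 0.732 and 0.462 in the siORCA lists. Chromosome 15 was farthest from it, with ratios of 0.106, 0.203, 0.170 and 0.0428. Chromosomes 13, 21 and 22 lay between, from 0.123 for chromosome 22 in siORCA 2 to 0.402 for chromosome 13 in control 2. Of the 40 ratios for single intervals, 38 were below 1. The exceptions were the distal interval of chromosome 14 in control 2 (1.14) and in siORCA 1 (1.25), while control 1 (0.358) and siORCA 2 (0.217) were below 1 there.

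**Figure D1:**
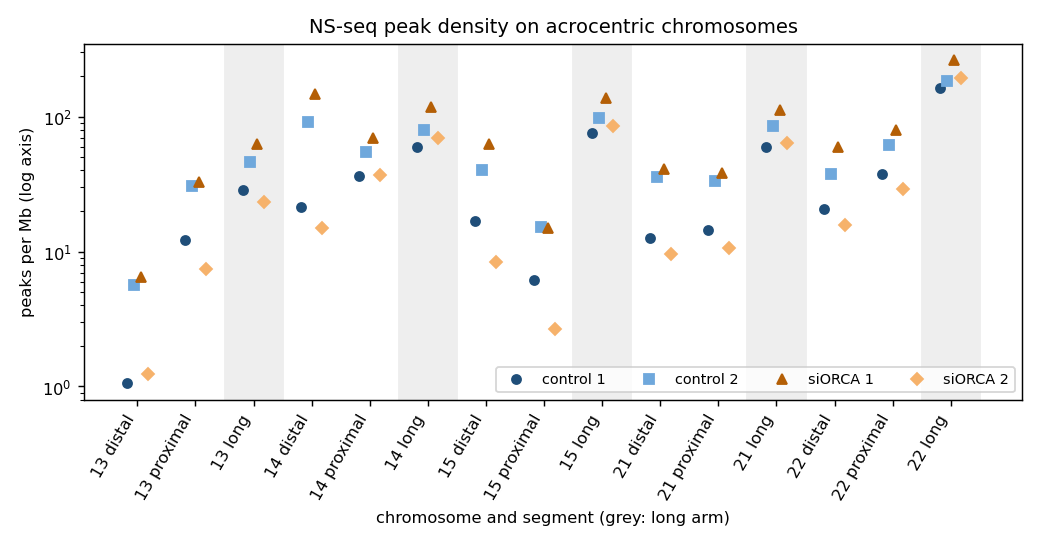
Peaks per Mb (log axis) in the distal and proximal short-arm intervals and the long arm (grey) of each acrocentric chromosome, 1 point per list. Long-arm points lie above those of the short-arm intervals in most columns, and the distal interval of chromosome 13 is the emptiest, with 1.05 to 6.49 peaks per Mb.

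Single intervals ranged widely. The distal interval of chromosome 13 was the emptiest, with 1.05, 5.61, 6.49 and 1.23 peaks per Mb. The proximal interval of chromosome 15 came next, with 6.15, 15.3, 14.9 and 2.65. The proximal intervals of chromosomes 14 and 22 were the densest in control 1 and siORCA 2, with 36.6 and 36.8 peaks per Mb on chromosome 14 and 37.5 and 29.3 on chromosome 22. In control 2 and siORCA 1 the distal interval of chromosome 14 was the densest, with 91.0 and 147 peaks per Mb, against 21.5 and 15 in control 1 and siORCA 2. Neither side of the rDNA was denser in every list. The distal over proximal density was 0.632, 0.913, 1.14 and 0.561 (mean log2 −0.36 ± 0.47, SD, n = 4; exact sign permutation test, two-sided, p = 0.375).

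Peaks of the short arms were gathered in blocks between long empty stretches. Of the 550 bins of 100 kb, 178 (32.4%) held no peak in any list, against 11 of 3336 (0.330%) in the long arms. A further 167 bins (30.4%) held a peak in all 4 lists, against 79.6% of long-arm bins. The 10% of bins with the most covered length in each list held 64.2%, 48.1%, 54.0% and 77.4% of the length covered by short-arm peaks. In the long arms that share was 44.2%, 37.6%, 38.6% and 47.6%, lower in each list.

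There were 34 stretches of at least 200 kb without a peak in any list. They added up to 19712.5 kb, 35.8% of the length, and 15 of them lay in the proximal interval of chromosome 15. The long arms, at 333.9 Mb, held 1 such stretch, of 208 kb on chromosome 13. The longest in the short arms ran from position 2547 to 4973214 of chromosome 13, 4971 kb or 87.2% of the distal interval, bounded on the left by the peaks at the chromosome end. A second on chromosome 13, from 13905020 to 15500000, spanned 1595 kb up to the centromeric edge of its interval. The longest on the other chromosomes were 864 kb on chromosome 21 (1103676 to 1967190), 762 kb on chromosome 15 (8233853 to 8996279), 575 kb on chromosome 22 (2450711 to 3025338) and 352 kb on chromosome 14 in the distal interval (962420 to 1314864). All are places where no list had a peak, which in lists of unknown depth does not show that no replication starts there. How reads with several matches were treated is not given, and the assembly is not that of U2OS. What these add to the empty stretches and to the lower peak density was not tested.

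**Figure D2:**
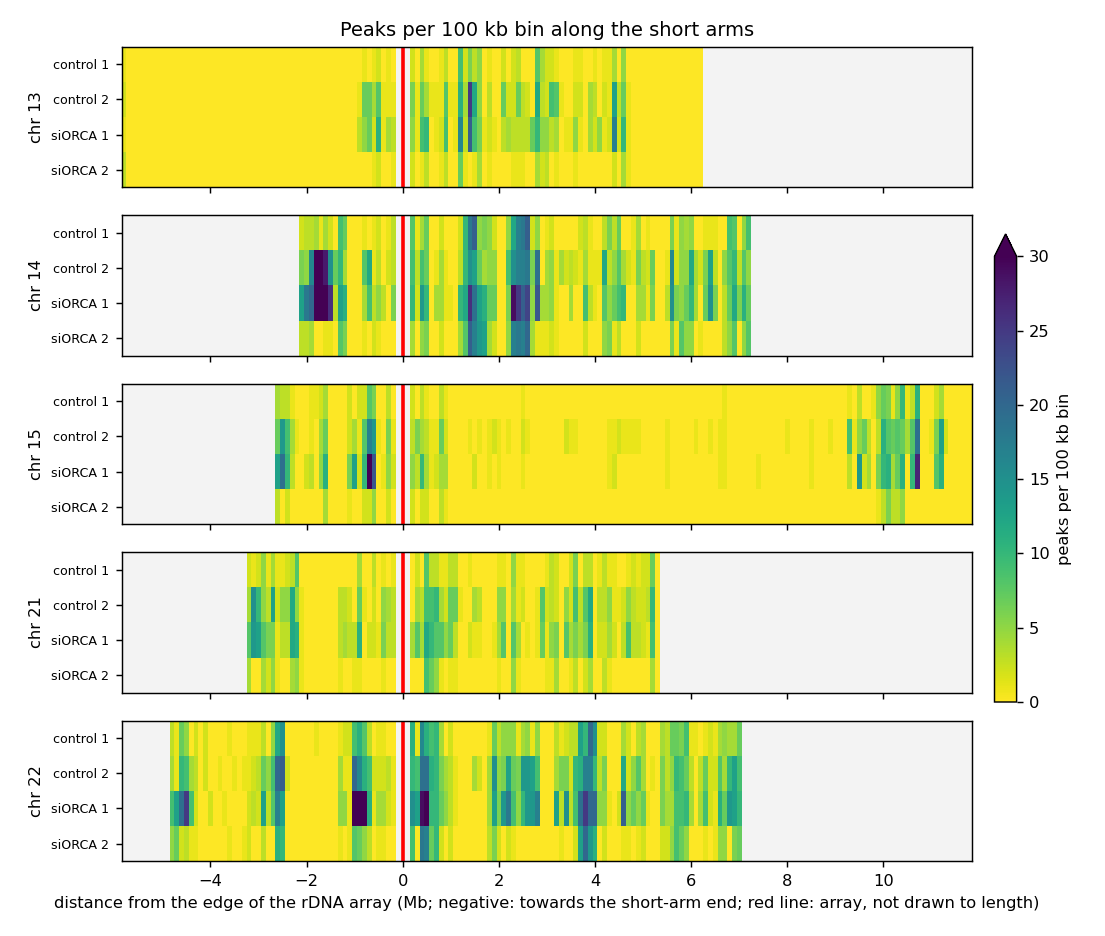
Number of peaks per 100 kb bin (colour, capped at 30) along each short arm, by distance in Mb from the edge of the rDNA array, with 1 row per list; yellow is 0 and grey lies outside the intervals. Chromosome 13 is empty over most of its distal interval and chromosome 15 over most of its proximal interval, and the block near the end of chromosome 14 is dark in control 2 and siORCA 1 but not in control 1 or siORCA 2.

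Adjacent bins with at least 10 peaks in some list formed 21 dense blocks of at least 2 bins. This definition was chosen after the values were seen. The blocks took up 69 bins, 12.5% of the length, and held 51.2%, 44.1%, 50.8% and 57.1% of short-arm peaks. Some blocks were found at a similar level in every list and others were not. In 10 of the 21, the highest share of a list's covered length was under 2 times the lowest.

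The steady blocks included the densest parts of the proximal arms of chromosomes 14 and 22. The block at 3.9 to 4.5 Mb of chromosome 14 held 62 and 52 peaks in the control lists and 91 and 77 in the siORCA lists. Its neighbour at 5 to 5.4 Mb held 68, 67, 99 and 72. On chromosome 22 the block at 5.8 to 6.4 Mb, which begins at the rDNA side of the interval, held 58, 78, 109 and 61 peaks. The block at 9.2 to 9.7 Mb held 61, 65, 93 and 60. In these 4 blocks siORCA 1, the longest list, held the most peaks, and on chromosome 14 both siORCA lists held more than both control lists. As a share of each list's covered length the groups overlapped in both chromosome 14 blocks, with 0.0430%, 0.0283%, 0.0387% and 0.0470% in the block at 3.9 Mb and 0.0517%, 0.0332%, 0.0383% and 0.0495% in that at 5 Mb. They also overlapped in the block at 5.8 Mb of chromosome 22, with 0.0417%, 0.0480%, 0.0501% and 0.0416%. In that at 9.2 Mb both siORCA lists lay above both control lists, with 0.0329%, 0.0322%, 0.0417% and 0.0343%, a difference that was not tested for the block itself. The 100 kb bins with the highest mean share of covered length lay in the same blocks, at 6 to 6.1 Mb of chromosome 22, with 16, 19, 29 and 18 peaks, and at 5.3 to 5.4 Mb of chromosome 14, with 21, 18, 24 and 20. By summed number of peaks, bins of a variable block ranked higher, such as 0.4 to 0.5 Mb of chromosome 14, with 1, 32, 59 and 0.

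Some of the variable blocks were nearly absent from 1 or more lists. The first 0.7 Mb of chromosome 14 held 19 peaks in control 1 and 12 in siORCA 2, but 132 in control 2 and 237 in siORCA 1. In list order these covered 5.78, 36.8, 79.5 and 2.09 kb. The block at 8.1 to 8.5 Mb of chromosome 22 held 15, 50, 55 and 0 peaks, and that at 15.2 to 15.4 Mb of chromosome 15 held 14, 27, 37 and 0. The block at 0.1 to 0.3 Mb of chromosome 21 held 3, 25, 27 and 0. In these 4 blocks control 2 and siORCA 1 were the highest and siORCA 2 the lowest. A block needed many peaks in only 1 list to be included, and these entered through control 2 and siORCA 1, so that order partly follows from how blocks were chosen. In 5 of the 21 blocks no merged region was found in all 4 lists. Other variable blocks were well filled in every list, such as that at 6 to 6.3 Mb of chromosome 21, with 14, 28, 30 and 21 peaks.

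**Figure D3:**
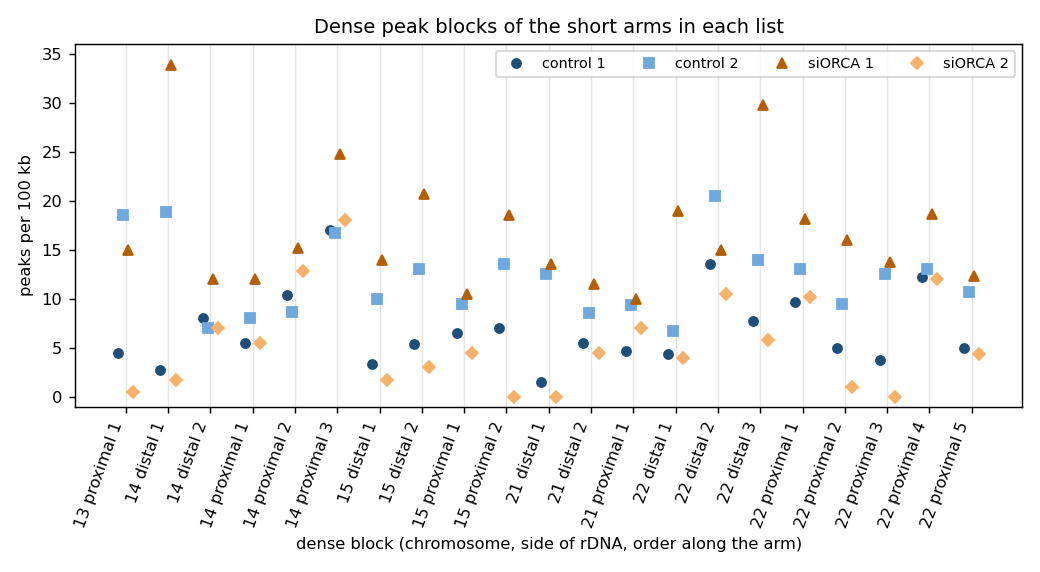
Peaks per 100 kb in each of the 21 dense blocks, in order along the arms, with 1 point per list. The points of control 1, control 2 and siORCA 2 lie close together in 14 proximal 3 (at 5 to 5.4 Mb), and those of siORCA 2 lie at 0 in 15 proximal 2, 21 distal 1 and 22 proximal 3.

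The sides of the rDNA array differed. In the 400 kb next to the array, the proximal side held more peaks than the distal side on each chromosome in each list, 20 of 20 pairs. Summed over the 5 chromosomes, the distal flanks held 16, 47, 65 and 9 peaks and the proximal flanks 82, 135, 200 and 80. The proximal flanks therefore held 5.13, 2.87, 3.08 and 8.89 times as many (mean log2 2.16 ± 0.76, SD, n = 4; exact sign permutation test, two-sided, p = 0.125, the smallest possible). The groups overlapped (siORCA minus control 0.45 on the log2 scale, exact permutation test, two-sided, p = 0.667). Chromosome 22 contributed most to the proximal side, with 39, 57, 89 and 44 peaks against 2, 8, 11 and 2 on its distal side. Because distal stretches are nearly identical between the 5 chromosomes, the pairs are not independent. How reads with several matches were treated is not given, and what read placement adds to this difference was not tested. The 400 kb length was chosen after the values were seen. With 200 kb and with 800 kb the proximal side was higher in 15 of 20 pairs, and with 800 kb the summed ratios fell to 1.84, 1.25, 1.1 and 3.21.

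**Figure D4:**
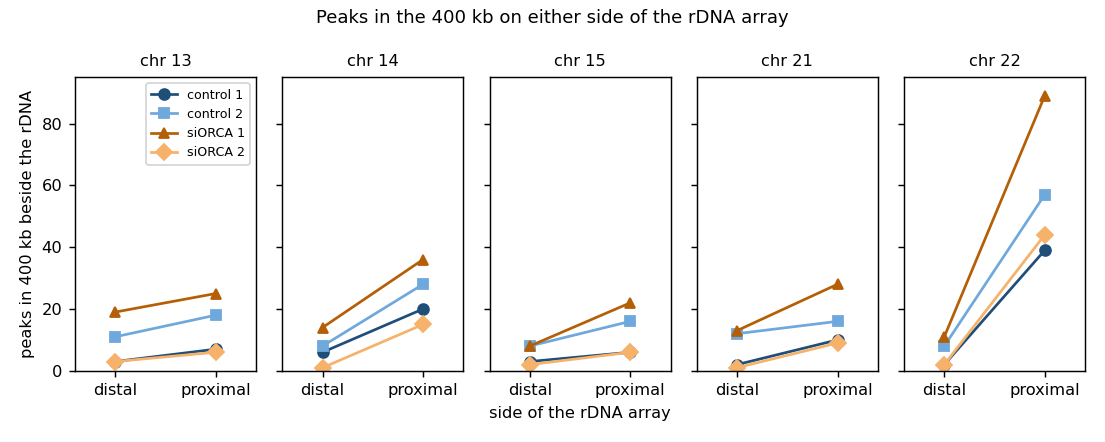
Number of peaks in the 400 kb on the distal and on the proximal side of the rDNA array of each acrocentric chromosome, with 1 line per list. Every line rises from distal to proximal, most steeply on chromosome 22, where the proximal side held 39 to 89 peaks.

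The very ends of the short arms carried peaks in every list. Human chromosomes end in telomere repeats, and the first 5 kb of each of the 5 arms held a peak in all 4 lists. The length covered there was 2543, 2151, 2544 and 579 bp on chromosome 13. It was 2053, 1296, 2440 and 482 bp on chromosome 14, and 2541, 2485, 2599 and 1451 bp on chromosome 15. On chromosome 21 it was 2231, 1731, 2330 and 568 bp, and on chromosome 22 it was 3971, 3587, 3978 and 1631 bp. The siORCA 2 list covered least at all 5 ends, and siORCA 1 covered most. Other chromosome ends held peaks as well, at 36, 36, 36 and 34 of 36 ends of other autosomes and X. All 5 acrocentric long-arm ends held a peak in each list. The medians at other chromosome ends had the same highest and lowest list. The median over the 5 short-arm ends was 2541, 2151, 2544 and 579 bp, against 1906.5, 1647, 2024.5 and 589 bp over 36 ends of other autosomes and X, and 2422, 1553, 2439 and 732 bp at the acrocentric long-arm ends. On chromosome 13 the end peaks were followed by the stretch of 4971 kb without a peak.

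Short-arm peaks were weaker than long-arm peaks in some lists and stronger in 1, and their median width was a little larger in all. Fold enrichment is the authors' value for each peak, and it is compared only within a list. Its median was 3.78 in short against 3.83 in long arms in control 1, and 3.86 against 3.96 in control 2. It was 4.16 against 4.53 in siORCA 1, and 4.46 against 4.2 in siORCA 2. The difference was −0.064 ± 0.263 (SD, n = 4 lists; exact sign permutation test, two-sided, p = 0.625), and its sign was positive in siORCA 2 alone. The share of peaks with a −log10 q that reached 3 was 35.5%, 36%, 55.5% and 62.8% in the short arms and 37.1%, 42.6%, 65.3% and 57.1% in the long arms. Median width was 227, 196, 197 and 220 bp in the short arms, against 221, 191, 170 and 218 bp. By the median, short-arm peaks were wider in 4 of 4 lists, by 10.0 ± 11.5 bp (SD; exact sign permutation test, two-sided, p = 0.125, the smallest possible). Peaks of at least 1000 bp numbered 31, 60, 97 and 17 in the short arms, or 3.20%, 3.06%, 3.86% and 2.25% of peaks. In the long arms their share was 3.41%, 2.50%, 1.97% and 3.56%. Such wide peaks were thus less frequent in the short arms in control 1 and siORCA 2, and more frequent in control 2 and siORCA 1.

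A smaller share of short-arm than of long-arm sites was found in all lists over the 5 chromosomes combined. Peaks of the 4 lists that touched or overlapped were merged into regions, 3972 in the short arms and 64517 in the long arms. Of these, 290 short-arm regions, 7.30% (95% Wilson interval 6.53 to 8.15), were in all 4 lists, against 7315 or 11.3% of long-arm regions (11.1 to 11.6). These intervals cover counting error only, and regions are not replicates of a condition. Regions found in 1 list made up 68.3% in the short and 59.3% in the long arms. The difference in the share found in all 4, −4.04 percentage points, was −0.985 (7.84% against 8.83%) when peaks with a −log10 q below 3 were left out. It was −2.53 when all lists were shortened to the same covered length. Of the regions of each list, 30.4%, 15%, 11.7% and 39.3% of those in the short arms were in all 4 lists, against 34.0%, 26%, 18.6% and 30.8% in the long arms, so that siORCA 2 went the other way.

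Reproducible regions were wider and stronger. Median width rose from 159 bp for regions in 1 list to 706 bp for those in all 4. The median of the top fold enrichment per region rose from 3.36 to 4.77 in control 1 and from 3.65 to 5.07 in control 2. In the siORCA lists it rose from 3.81 to 7.49 and from 3.56 to 5.48. A wide region has more chances to overlap a peak of another list, and this is a description. By chromosome, 25 of 406 short-arm regions of chromosome 13 were in all 4 lists, 6.16%, above the 4.90% of its long arm. On chromosome 14 it was 107 of 1185, 9.03% against 9.53%. The share was lower in the short arm on chromosome 15 (26 of 550, 4.73% against 10.6%), chromosome 21 (32 of 543, 5.89% against 9.85%) and chromosome 22 (100 of 1288, 7.76% against 20.7%).

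Of the regions in all 4 lists, the one whose lowest fold enrichment was highest lay at 6204378 to 6204795 of chromosome 22, in the steady block beside the rDNA. Its fold enrichment was 13 and 16.7 in the control lists and 34.8 and 17.3 in the siORCA lists, and it ranked among the 10 strongest short-arm peaks of each list (6, 5, 8 and 7). The region at 12106587 to 12107059 of chromosome 13 followed, with 12.1, 11.9, 17.9 and 19.4. At 7183683 to 7184239 of chromosome 14 the values were 11.4, 15.7, 19.8 and 21.9, the last being the strongest short-arm peak of the siORCA 2 list. The region at 10882151 to 10883601 of chromosome 13 was 1451 bp wide, with 13.6, 14.9, 10.9 and 10.2. The fifth, 71 to 2400 of chromosome 21, is the end of that arm, with 10.2, 30.03, 15.8 and 15.5. All are named by position only, since no annotation of this assembly was used here.

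The strongest shared region of other intervals was weaker in some. In the distal interval of chromosome 13 it was again the chromosome end, at 3 to 2546, with a fold enrichment of 5.79, 9.66, 6.95 and 8.02. In the distal interval of chromosome 22 it was the end as well, at 172 to 4149, with 8.76, 13.6, 10.0 and 7.78. In the distal interval of chromosome 14 it lay at 853971 to 854135, with 8.40, 14.3, 13.5 and 12.1. In the distal interval of chromosome 15 it lay at 1004773 to 1005173, with 6.68, 22, 11.2 and 7.37. In the proximal interval of chromosome 15 a region 3573 bp wide at 14795789 to 14799361 had 5.27, 6.36, 8.33 and 6.06. In the proximal interval of chromosome 21 a region 218 bp wide at 9310576 to 9310793 had 18, 16.1, 23.3 and 10.0. In 3 of the 5 distal intervals, those of chromosomes 13, 21 and 22, the strongest shared region was thus the chromosome end itself. Most other chromosome ends also held peaks, and the chromosome given for an end peak may be uncertain.

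Neither the total of the short arms nor that of any interval differed between siORCA and control cells by more than the spread within the groups. The short arms held 0.563% and 0.886% of the covered length in the control lists and 0.931% and 0.402% in the siORCA lists. The control mean was 0.725 ± 0.229% and the siORCA mean 0.666 ± 0.374% (SD, n = 2 each; difference −0.0585 percentage points, exact permutation test, two-sided, p = 1, with a smallest possible p of 0.333). The highest and lowest lists, siORCA 1 and siORCA 2, belonged to the same group. The difference was 0.206 points without siORCA 2 and −0.323 without siORCA 1, and 0.103 without control 2. The log2 ratio of short-arm to long-arm density differed by −0.32 (exact permutation test, two-sided, p = 0.667) and by 0.18 without siORCA 2.

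The lists lay farther apart in the short arms than in the long arms. The highest list had 2.32 times the lowest share of covered length in the short arms, against 1.01 times in the long arms, whose shares were 12.33%, 12.36%, 12.36% and 12.44%. Over 1 Mb windows, the highest list had a median of 2.95 times the lowest in the short arms. The median was 1.60 in long-arm windows, and 1.80 in the 199 long-arm windows no denser than the densest short-arm one. In 27 of 32 short-arm windows (84.4%) control 2 and siORCA 1 were the highest lists, against 42.5% of long-arm windows and 53.8% of those no denser. In 27 of 32 windows siORCA 2 was the lowest list, against 51.3% of long-arm windows and 65.8% of those no denser. Short-arm and long-arm windows were kept if their mean covered length over the 4 lists was at least 5 kb. Some short-arm windows met this through control 2 and siORCA 1, such as 9.8 to 10.8 Mb of chromosome 22, with 3.98, 10.1, 15.3 and 1.28 kb. These tallies therefore partly follow from how windows were kept. In all 10 intervals control 2 and siORCA 1 had the highest shares and siORCA 2 the lowest, and the groups overlapped in 10 of 10 (exact permutation tests, two-sided, Benjamini-Hochberg over 10, p = 1). What sets these lists apart was not tested.

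Covered length per 1 Mb window, as log2 of the length plus 1000 bp over the list's total, was compared between groups with limma over all 2453 windows that passed a minimum mean of 5 kb. Of these, 2 were called at an adjusted p under 0.05, 0.0815% of windows, and neither lay in the short arms. Of 56 short-arm windows 32 were dense enough to be tested. None of them was called (lowest adjusted p 0.935, limma with Benjamini-Hochberg), and 2 had an unadjusted p under 0.05, where the background share is 3.26%. In 26 of 32 (81.2%) the siORCA mean was lower, against 61.6% of all windows, with a median log2 difference of −0.28 against −0.09. Single lists turned this tally: the siORCA mean was lower in 6 of 36 windows without siORCA 2 (median 0.34) and in 15 of 30 without control 2 (median 0.01). It was lower in 27 of 28 without siORCA 1 (median −0.85) and in 27 of 33 without control 1 (median −0.64). Both siORCA lists lay below both control lists in 2 short-arm windows, where the share over all windows is 20.1%, and above in 0, where it is 10.6%. Those 2 were the windows at 9.7 to 10.9 Mb of chromosome 21 (log2 −0.63) and at 2 to 3 Mb of chromosome 22 (log2 −0.57). This tally changed with the setting. Without peaks of a −log10 q below 3, the siORCA lists lay below in 7 of 19 short-arm windows, against 228 of all 1731. At equal list length they lay below in 4 of 27, against 609 of all 2230.

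The short-arm window with the smallest p lay at 7.8 to 8.8 Mb of chromosome 22, around the variable block. Peaks covered 6.66 and 34.6 kb of it in the control lists and 33.0 and 0.603 kb in the siORCA lists. Control 2 and siORCA 1 were high and the groups overlapped (log2 difference −1.41, SE 0.52, limma adjusted p = 0.935). The difference was 0.58 without siORCA 2, −2.42 without control 1 and −3.40 without siORCA 1, so its sign turned with 1 list. With all 4 lists and a block that pairs control 1 with siORCA 2 and control 2 with siORCA 1, chosen after seeing the data, the window was called (log2 −1.41, limma adjusted p = 0.00502). The window at 10.4 to 11.4 Mb of chromosome 13 held 8.42, 26.2, 22.2 and 4.52 kb (log2 −0.75, SE 0.37, adjusted p = 0.935). The window at 14.8 to 15.8 Mb of chromosome 15 held 12.1, 19.4, 26.8 and 4.42 kb (log2 −0.66, SE 0.35, adjusted p = 0.935). Without siORCA 2 these became 0.08 and 0.31. Of the 3 positive windows with the smallest p, the largest difference was 0.28 (SE 0.21, adjusted p = 0.935), at 3.9 to 4.9 Mb of chromosome 14, which holds a steady block.

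Merged regions in both siORCA lists and neither control list are called gained here, and the reverse lost. In the short arms 105 regions were gained, 2.64%, against 5.44% over the assembly and 5.34% in the long arms. A total of 44 were lost, 1.11%, against 1.67% over the assembly and 1.61% in the long arms. Regions found in control 2 and siORCA 1 alone were more numerous than gained and lost regions together, with 372 or 9.37%, against 4.46% in the long arms. Those in control 1 and siORCA 2 alone numbered 29, 0.730%, against 1.89% in the long arms and 1.86% over the assembly. Such counts depend on the lengths of the lists, and control 2 and siORCA 1 had the most short-arm peaks (1960 and 2516). At equal list length the counts turned to 60 gained and 72 lost, and without peaks of a −log10 q below 3 they were 119 and 10. Leaving out 1 list, which loosens the definition, gave 185 (without control 2) to 1447 (without siORCA 2) gained and 67 (without siORCA 2) to 1048 (without control 1) lost. The widest gained region, at 10478641 to 10479995 of chromosome 13, had 1355 bp under peaks in siORCA 1 and 482 bp in siORCA 2, with fold enrichment of 3.90 and 3.97. The widest lost region, at 8339738 to 8340643 of chromosome 22, had 124 bp under peaks in control 1 and 906 bp in control 2, with 3.55 and 5.61.

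**Figure D5:**
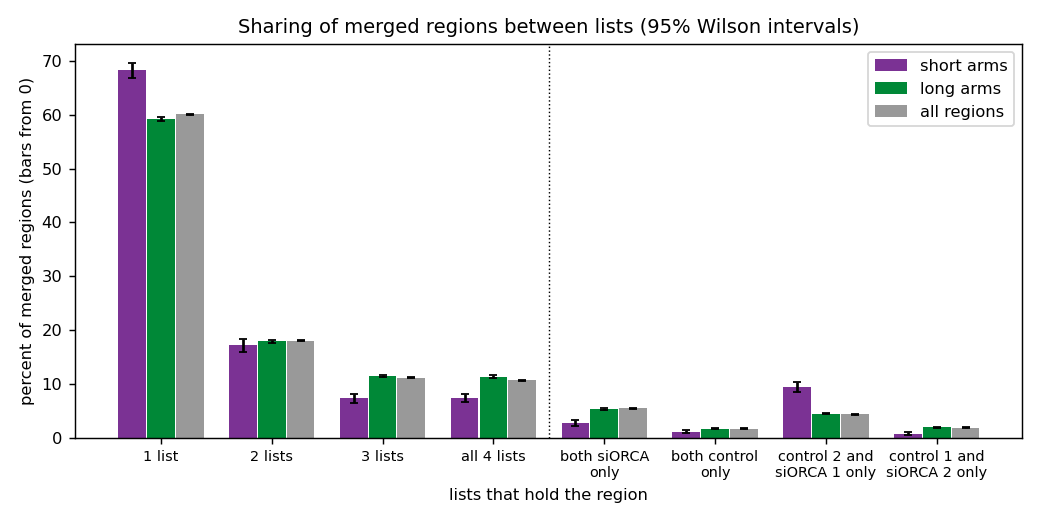
Percent of merged regions by the number of lists that hold them (left of the dotted line) and by 4 ways of being in exactly 2 lists (right), for short arms, long arms and all regions; error bars are 95% Wilson intervals for counting error. Short arms have more regions in 1 list (68.3%) and fewer in all 4 (7.30%), and more in control 2 and siORCA 1 only (9.37%) than in both siORCA lists only (2.64%).

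Of the pairs of lists, control 1 with siORCA 2 overlapped most. The Jaccard index, the length shared by a pair of lists over the length of their union, was 0.309 for control 1 with siORCA 2 in the short arms. For the other 5 pairs it lay between 0.165 and 0.186, including control 2 with siORCA 1 (0.185), control 1 with control 2 (0.165) and siORCA 1 with siORCA 2 (0.186). In the long arms control 1 with siORCA 2 was also the highest pair (0.302), siORCA 1 with siORCA 2 reached 0.284, and control 2 with siORCA 1 was the lowest (0.191). The index depends on the lengths of the lists, and control 1 and siORCA 2 had the least covered length in the short arms. Of the short-arm regions of each list, 28.7%, 51.7%, 53.9% and 14.1% were in no other list. In the long arms these shares were 25.2%, 39.5%, 44.7% and 17.3%.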

How the data were processed

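NS-seq peaks of 4 U2OS samples were used, 2 control and 2 siORCA. BWA, SAMtools and MACS2 were used on T2T-CHM13, per the submitters' processing notes; versions, settings, the treatment of reads with several matches and the use of genomic DNA as background are not given in the sources used here. A deposited broad-peak list holds 1 sample and gives positions, a score, a fold enrichment (a linear ratio), −log10 p and −log10 q per peak, all made by the authors. No deposited −log10 q is below 1.3025. The lists hold no counts, so depth is unknown and no interval on a level could be given.

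From these lists, peak numbers, covered length, merged regions and 100 kb bins were computed (Python 3.11.15, numpy 2.4.6, pandas 2.3.3, scipy 1.17.1). Windows of 1 Mb, cut at interval edges, were tested with limma 3.58.1 in R 4.3.3 (eBayes with trend, pseudocount 1000 bp, Benjamini-Hochberg, threshold 0.05). The procedure was also run on simulated windows with independent noise of the same size in every window. That noise does not copy the short-arm windows, whose SE went from 0.199 to 0.610, so the run does not show how the procedure performs on them. Single values were compared with exact permutation tests. Long-arm starts were set at whole-Mb positions past the centromeric satellites.

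Named regions were the 5 shared by all lists with the highest minimum fold enrichment, the best of each interval, and the 3 widest gained and lost; windows were the 3 each way with the smallest p, bins the 5 with the highest mean share, and stretches the longest without a peak on each chromosome. Of the 3 widest gained and lost, 1 each is described. The members and lists were chosen with earlier results of these data known. No sequence or gene name is given because no T2T-CHM13 genome or annotation was used here. Alternatives were a stricter list, lists of equal covered length, trimmed intervals and long arms, covered length per Mb in place of peaks per Mb, gaps of 1 kb, other window settings, the replicate number as a block and each replicate left out.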

Additional observations from a re-analysis of the deposited data

How the results depend on the processing

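The lower peak density of the short arms held under all 10 alternatives (mean log2 ratio −1.90 to −1.53). The fold enrichment difference turned to 0.0117 without peaks of a −log10 q below 3 (the stricter peaks), and ranged from −0.175 to 0.0388 with 1 list left out. Its siORCA minus control value, 0.0222, became −0.00014 with the stricter peaks and ranged from −0.298 to 0.342 with 1 list left out. That of the share of covered length ranged from −0.323 to 0.206, and that of the log2 density ratio from −0.82 to 0.18. The difference in the share of regions in all lists was −6.36 points with gaps of 1 kb, −0.985 with the stricter peaks and −2.53 at equal length (chosen after seeing the data). Gained and lost regions were 60 and 72 at equal length, 10 were lost with the stricter peaks, and with 1 list left out 185 to 1447 were gained and 67 to 1048 lost. With the stricter peaks, 2 of the 10 interval shares did not overlap between groups, both lower in siORCA (chosen after seeing the data). At that setting both siORCA lists lay below both control lists in 228 of the 1731 windows of 1 Mb tested, and above in 203.

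Over the assembly, limma called 2 windows, against 0 with the stricter peaks, with a pseudocount of 5000 bp, with 250 kb windows, with median centring and with the replicate block, and 1 at equal length. Same-numbered samples deviated in opposite directions (r = −0.467 over all windows). This does not show whether they were prepared together, which the labels do not state. The replicate block cannot change the siORCA minus control share, −0.0585, because each block holds 1 sample of each group, so it is no check of that value. A crossed block, chosen after seeing the data, called 4 of 2453 windows, with 249 at an unadjusted p under 0.05. Of the 32 short-arm windows it called 1 (7.8 to 8.8 Mb of chromosome 22). With 1 list left out, 0 to 77 windows were called, 0 to 6 of them in the short arms; the lone sample is then assumed to vary like the other group. Of the short-arm windows named, that at 3.9 Mb of chromosome 14 ranged from −0.0010 (without control 2) to 0.56 with 1 list left out, that at 8.8 Mb of chromosome 22 from −0.18 (without siORCA 1) to 0.49, and that at 2.9 Mb of chromosome 14 from −0.033 (without siORCA 1) to 0.37. Those on chromosome 22 at 7.8 Mb, chromosome 13 at 10.4 Mb and chromosome 15 at 14.8 Mb ranged from −3.40, −1.57 and −1.63 without siORCA 1 to 0.58, 0.077 and 0.31 without siORCA 2. The last was 0.095 with the stricter peaks. The cause of these changes was not tested. The limits are 2 samples a group, an unknown depth, and near-identical sequence between the 5 short arms.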

Other observations

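Spacing differed between short and long arms in each list. The share of short-arm peaks with another peak within 5 kb was 52.4% and 64.8% in the control lists and 74.7% and 55.6% in the siORCA lists, against 67.7%, 71.0%, 79.8% and 74.2% in the long arms. The median distance to the nearest peak was 4.55, 2.86, 1.68 and 3.51 kb in the short arms and 2.65, 2.32, 1.63 and 2.0 kb in the long arms. Short-arm peaks were thus farther apart in all 4 lists, by least in siORCA 1.

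Some single peaks, chosen after their values were seen, stood out in 1 list. At 9519562 to 9519720 of chromosome 22, in the steady block at 9.2 to 9.7 Mb, the authors' fold enrichment was 253 in siORCA 1, against 8.17 in control 1, 7.25 in control 2 and 13.1 in siORCA 2. At 4335270 to 4335685 of chromosome 14 it was 131 in siORCA 1, against 12.1, 8.72 and 15.5. At 10294281 to 10294648 of chromosome 22 it was 26.3 in control 1, against 11.8 in control 2, 4.29 in siORCA 1 and 7.36 in siORCA 2. All 3 places held a peak in every list.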
